A study of Mus musculus with 18 samples.

Results

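The genes described here were 32 genes that encode the enzymes, carriers and regulators of the tricarboxylic acid (TCA) cycle and of the entry of pyruvate and glutamine carbon into it, taken by symbol from a deposited table of 45703 mouse genes. All 32 members were found. All 32 passed the filter on low values, a minimum TPM of 1 met by 3 or more of the 18 libraries, as did 14229 genes in all. TPM is the share of transcripts a gene takes in a library. It divides reads by transcript length and scales each library to the same total, so that levels can be compared between genes.

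The libraries came from CD4+ T cells that were activated as naive cells and polarized for 48 h towards Th17, helper T cells named for their interleukin-17. GLUT3KO cells (Slc2a3-fl/fl Cd4-cre) carried a deletion of the glucose transporter GLUT3. ACLYKO cells (Acly-fl/fl Cd4-cre) carried one of ATP citrate lyase, which splits exported citrate into acetyl-CoA and oxaloacetate in the cytosol. WT cells were wild type. In both knockouts Cre is driven by Cd4, so the floxed gene is lost in the T cell lineage and not in other cells of the mouse. Each genotype was cultured with or without acetate for 24 h, and every culture was then restimulated for 5 h (PMA plus ionomycin, with brefeldin A and monensin). The 6 groups, GLUT3KO with acetate, GLUT3KO, ACLYKO with acetate, ACLYKO, WT with acetate and WT, had 3 libraries each. The acetate concentration is 20 mM in the sample protocols and 10 mM in the series text. The background label reads C57BL/6 for 12 libraries and carries another number for the other 6, all of them from knockout cells. The sources used here give no age for the mice. They also leave unsaid whether a group's 3 libraries were made from different mice. The p-values therefore describe library-to-library spread, which may be technical.

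The TCA cycle oxidizes acetyl-CoA in mitochondria and hands electrons to the respiratory chain. Pyruvate enters through the mitochondrial pyruvate carrier, then through the pyruvate dehydrogenase complex as acetyl-CoA or through pyruvate carboxylase as oxaloacetate. Glutamine carbon enters as 2-oxoglutarate by way of glutamate dehydrogenase or the transaminases. Citrate that leaves the cycle feeds ATP citrate lyase, so that the cycle, GLUT3-borne glucose carbon and cytosolic acetyl-CoA are linked in activated T cells.

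The libraries held between 18697197 and 30101756 reads, recovered from the TPM values. Acly lay between 7.01 and 14.4 TPM in the 6 ACLYKO libraries, against 392 to 461 TPM in the 6 WT libraries. Slc2a3 lay between 4.005 and 13.6 TPM in the 6 GLUT3KO libraries, against 14.4 to 32.6 TPM in the 6 WT libraries, and the ACLYKO libraries without acetate, at 5.76, 13.1 and 11.7 TPM, also lay below every WT library (log2 change -0.80 ± 0.28 against WT, limma adjusted p = 0.0590). Values are per gene and do not separate the deleted exons. Summed TPM of 7 T cell markers ranged from 1842 to 4103 over the libraries, and that of 5 macrophage markers from 0.131 to 1.93, with C1qa at 0 in every library. Markers of B cells, CD8 T cells, red cells and neutrophils summed to at most 1.67, 19.9, 5.70 and 3.71 TPM in any library. In bulk RNA a smaller number of cells of a type cannot be told apart from less RNA per cell.

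Replicate 1 of GLUT3KO, of ACLYKO, of ACLYKO with acetate and of WT scored above 20 on the leading axis of spread inside the groups. The cut was set at this end of the axis only. These libraries are the 4 said below to have stood apart. In ACLYKO, ACLYKO with acetate and WT, replicates 2 and 3 both had negative scores. In GLUT3KO replicate 2 lay farther from replicate 3 than replicate 1 did, with scores of 31.86, -35.96 and 4.1 for replicates 1, 2 and 3. The axis held 63.6% of the variance inside the groups. Its gene loadings correlated across genes with transcript GC content (Spearman rho = -0.446, genes not being independent replicates). ACLYKO replicate 1 was the lowest of 18 libraries for 10 members and the highest for 8. Cs, citrate synthase, had 54.5 TPM in it, against 254 and 255 TPM in ACLYKO replicates 2 and 3. The median SD of the members within a group, on the log2(TPM + 1) scale, was 0.36 in ACLYKO and 0.21 in GLUT3KO, against 0.16 in WT, and 0.06 in GLUT3KO with acetate, 0.14 in ACLYKO with acetate and 0.07 in WT with acetate. Counts of members are given with and without these libraries, and so is each called change of a member that moved by over 1.5 times without them. Changes of genes that are no members are given with all libraries only.

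**Figure D1:**
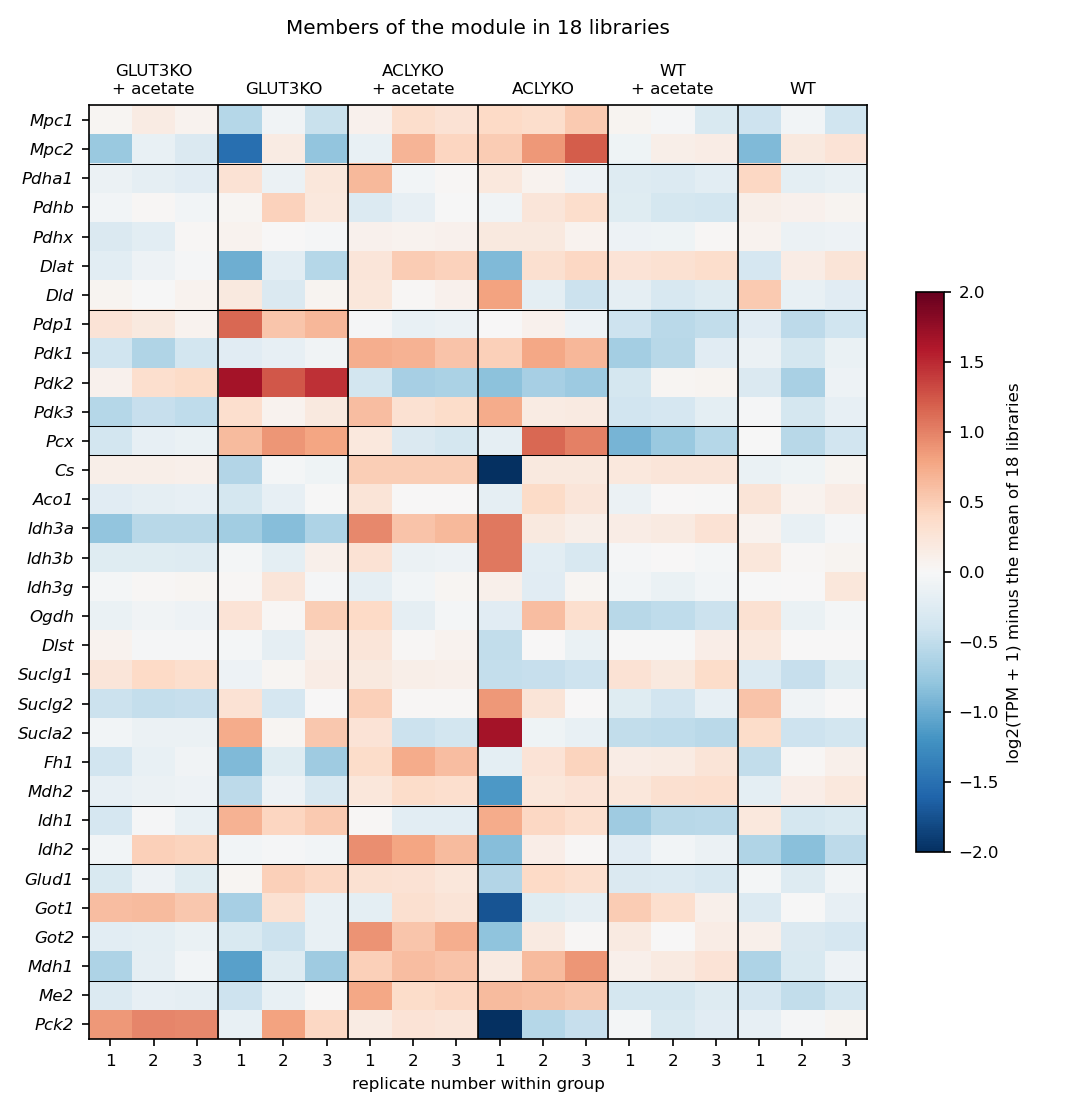
The 32 members (rows, in the order of their roles) in the 18 libraries (columns, by group and replicate number); colour is log2(TPM + 1) minus the member's mean over all libraries, and the scale ends at 2 in both directions. Replicate 1 of ACLYKO stands out from replicates 2 and 3, with Cs at 54.5 TPM against 254 and 255 TPM, and Pdk2 is high in the 3 GLUT3KO libraries.

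In WT cells without acetate the level of the members spanned more than 2 orders of magnitude. Mdh2, mitochondrial malate dehydrogenase, had the highest mean level at 455 ± 65.9 TPM, followed by Glud1, glutamate dehydrogenase, at 299 ± 25.1 TPM (SD, n = 3). Dld, the dihydrolipoamide dehydrogenase shared by the pyruvate and 2-oxoglutarate dehydrogenase complexes, followed at 283 ± 86.8 TPM. The range of Dld overlapped those of Glud1 and of Mdh2, and in WT replicate 1 Dld, at 383 TPM, lay above Mdh2, at 380.4 TPM. The 6 lowest were Pdp1 at 9.06 ± 1.05 TPM, Pdk1 at 8.38 ± 0.857 TPM, Idh2 at 6.27 ± 0.784 TPM, Idh1 at 3.91 ± 1.10 TPM, Pcx at 3.60 ± 0.913 TPM and Pdk2 at 1.34 ± 0.440 TPM. Pdk3, the remaining regulator, stood in the middle of the order at 43.97 ± 5.00 TPM. The ranges of Pdp1 and Pdk1 overlapped, as did those of Idh1 and Pcx. The summed level of the members was 3115 ± 223 TPM in GLUT3KO and 3272 ± 237 TPM in ACLYKO, against 3100.3 ± 136 TPM in WT. With acetate it was 3201 ± 67.6 TPM in GLUT3KO, 3854 ± 127 TPM in ACLYKO and 3212 ± 33.99 TPM in WT. The ACLYKO libraries with acetate, at 3771 to 4000 TPM, lay above all the other 15 libraries.

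Loss of GLUT3 without acetate went with higher transcripts of regulators of the pyruvate dehydrogenase complex, of pyruvate carboxylase and of both NADP-dependent isocitrate dehydrogenases, and with a lower transcript of a subunit of the NAD-dependent one. Of the 32 members 6 rose and 1 fell (21.9%; limma on log2(TPM + 1), Benjamini-Hochberg adjusted p under 0.05), against 33.4% of all tested genes, of which 24.9% rose and 8.47% fell. The median log2 change of the members was 0.03, against 0.17 over all tested genes. The share of members called was thus below that of all tested genes. In the same libraries the summed TPM of 3 NK cell markers was 10.55 to 34.3 in GLUT3KO, against 3.65 to 5.08 in WT, and that of 7 Th17 markers 336 to 411 in GLUT3KO, against 1381 to 1587 in WT. The part of these markers in the result was not tested.

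Pdk2 (GRCm38.p6, chromosome 11, 95026258 to 95041371, minus strand) encodes a kinase that phosphorylates and thereby inhibits the pyruvate dehydrogenase complex. It had 8.34, 5.93 and 7.07 TPM in GLUT3KO, against 1.39, 0.872 and 1.75 TPM in WT. Each GLUT3KO library lay above each WT library, and the log2 change was 1.80 ± 0.17 (SE, limma adjusted p = 1.405e-06). Between 14 and 218 reads per library stand behind its values over the 18 libraries. Pdp1 (chromosome 4, 11958183 to 11966450, minus strand), a phosphatase that removes the inhibiting phosphate, rose as well. It had 27.9, 18.2 and 19.7 TPM in GLUT3KO, against 10.2, 8.10 and 8.92 TPM in WT, with no overlap (log2 change 1.17 ± 0.15, limma adjusted p = 2.34e-05). Transcripts of a kinase and of an opposing phosphatase were thus both higher. Pdp2, a further phosphatase of the complex and no member, averaged 9.34 ± 0.289 TPM in GLUT3KO and 8.44 ± 0.905 TPM in WT. Its change did not pass the threshold (log2 change 0.14 ± 0.12, limma adjusted p = 0.430). The other kinases did not pass the threshold, with log2 changes of 0.05 ± 0.14 for Pdk1 and 0.38 ± 0.16 for Pdk3.

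Pdk3 made up most of the kinase transcripts in every group, and Pdk2 a small share. Pdk2 accounted for 9.69 ± 0.800% of the summed TPM of Pdk1, Pdk2 and Pdk3 in GLUT3KO, against 2.47 ± 0.677% in WT (SD, n = 3). The summed TPM of these kinases was 73.0 ± 6.40 in GLUT3KO and 81.6 ± 14.2 in ACLYKO, against 53.7 ± 6.10 in WT. The ratio of Pdp1 to this sum was 0.298 ± 0.0465 in GLUT3KO and 0.151 ± 0.0253 in ACLYKO, against 0.169 ± 0.00516 in WT. These sums and ratios were chosen after the values were seen and carry no test, and the ratios leave out Pdp2.

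Pcx (chromosome 19, 4510472 to 4621752, plus strand) encodes pyruvate carboxylase, which makes oxaloacetate from pyruvate. It had 7.79, 9.45 and 8.71 TPM in GLUT3KO, against 4.61, 2.85 and 3.33 TPM in WT. The groups did not overlap (log2 change 1.08 ± 0.28, limma adjusted p = 0.00791). The span of Pcx holds the gene Lrfn4 on the opposite strand. The strand setting of the counting is unknown here, so reads of both may be shared. Lrfn4 had 3.02, 2.10 and 2.86 TPM in GLUT3KO, against 2.27, 1.94 and 2.30 TPM in WT. Idh1 (chromosome 1, 65158616 to 65186479, minus strand), the cytosolic NADP-dependent isocitrate dehydrogenase, had 7.68, 6.22 and 6.72 TPM in GLUT3KO, against 5.18, 3.20 and 3.35 TPM in WT, with no overlap (log2 change 0.70 ± 0.17, limma adjusted p = 0.00442). Idh1 lost its call with quantile normalization (limma adjusted p = 0.135).

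Idh2 (chromosome 7, 80094845 to 80118608, minus strand), the mitochondrial NADP-dependent enzyme, had 9.97, 10.2 and 9.93 TPM in GLUT3KO, against 6.50, 5.39 and 6.91 TPM in WT. The GLUT3KO libraries lay above the WT libraries (log2 change 0.61 ± 0.22, limma adjusted p = 0.0446), but the call was lost in 11 of 16 alternatives. Suclg1 (chromosome 6, 73248505 to 73276907, plus strand), the alpha subunit of succinyl-CoA synthetase, had 126, 138 and 149 TPM in GLUT3KO, against 111, 97.7 and 114 TPM in WT (log2 change 0.35 ± 0.11, limma adjusted p = 0.0241). Its groups did not overlap, and the call was lost in 6 of 16 alternatives, the other scalings among them. Idh3a (chromosome 9, 54586511 to 54604662, plus strand) encodes the catalytic subunit of the NAD-dependent isocitrate dehydrogenase of the cycle and was the only member that fell in this fit. It had 62.4, 55.8 and 66.0 TPM in GLUT3KO, against 106, 91.5 and 100.1 TPM in WT. Each GLUT3KO library lay below each WT library (log2 change -0.69 ± 0.20, limma adjusted p = 0.0166), and without GLUT3KO replicate 2 the adjusted p was 0.0513. The partner subunits Idh3b and Idh3g did not pass the threshold.

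The other 25 members did not pass the threshold under GLUT3 loss. Among them, limma called 0 of the 5 pyruvate dehydrogenase core subunits (1 at an unadjusted p under 0.05, 0 with voom on recovered reads). With median-ratio scaling, which moved the median change of all tested genes to -0.01, the members split into 4 higher and 6 lower. With quantile normalization the split was 3 higher and 4 lower, with voom 4 and 3, and with a correction for GC content and exon length 5 and 9. These 4 fits called 34.1%, 35%, 30.5% and 38.4% of all genes, in that order. Without the 4 libraries that stood apart 12 members were higher and 4 lower, against 60.1% of all genes called in that fit. In that fit Sucla2, Glud1 and Pck2 were among the members added as higher (log2 changes of 0.68, 0.60 and 0.60), and Dlat and Fh1 among those added as lower (-0.59 and -0.54).

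**Figure D2:**
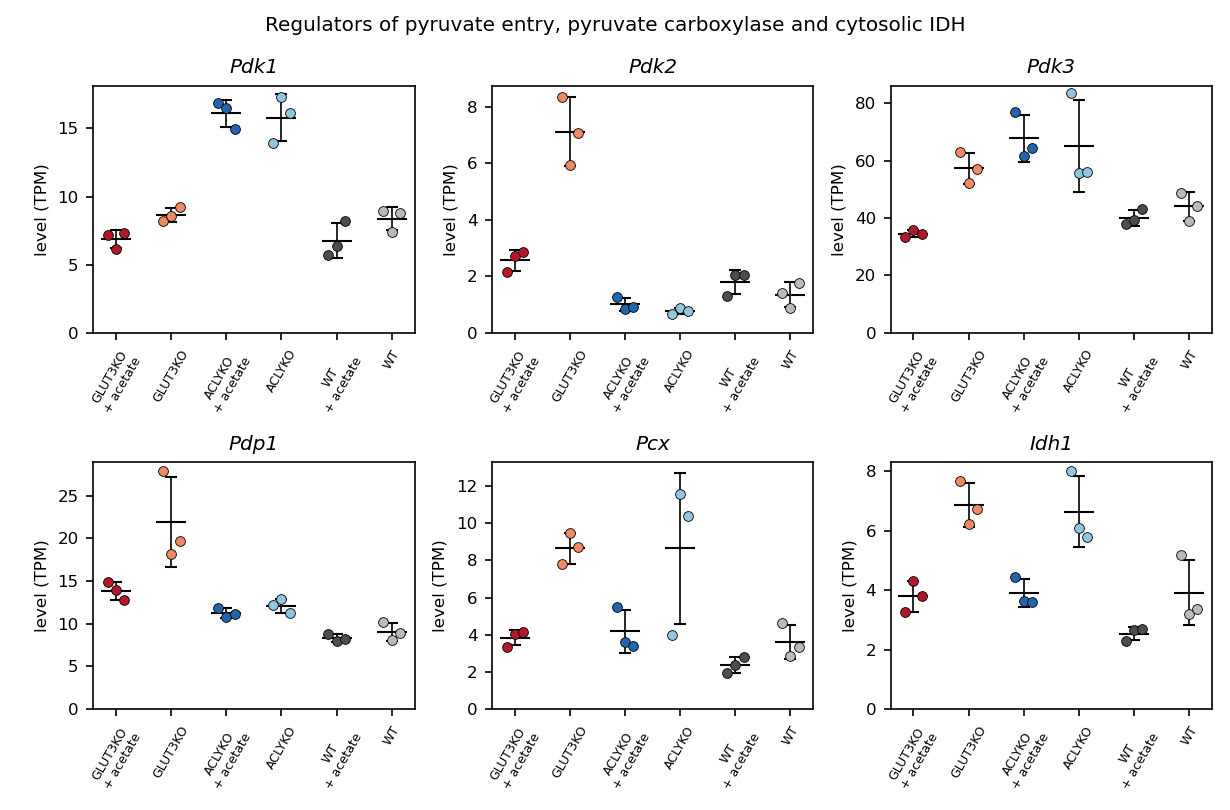
Levels in TPM (y axis, starting at 0) of Pdk1, Pdk2, Pdk3, Pdp1, Pcx and Idh1 in the 6 groups (x axis); points are libraries, horizontal marks the mean and bars the SD of 3. Pdk2 lies between 5.93 and 8.34 TPM in GLUT3KO and at most at 2.85 TPM in every other library.

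Loss of ACLY without acetate went with higher transcripts of the pyruvate carrier subunit Mpc1, the kinases Pdk1 and Pdk3, Pcx, Idh1, cytosolic malate dehydrogenase and the mitochondrial malic enzyme. Of the 32 members 7 rose and 0 fell (21.9%), against 19.1% of all tested genes (12.7% higher and 6.38% lower), a share near the background. The median log2 change was 0.18, against 0.03 over all tested genes. The summed TPM of 7 T cell markers was 1842 to 2144 in ACLYKO, against 2470 to 2692 in WT, and that of the Th17 markers 396 to 520.4 in ACLYKO, against 1381 to 1587 in WT. Their part in the result was not tested. Limma called 0 of the 12 cycle enzymes proper (1 at an unadjusted p under 0.05, 0 with voom). Without the 4 libraries that stood apart Cs and Ogdh passed as higher and Idh3b as lower (log2 changes of 0.21, 0.56 and -0.31).

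Me2 encodes the mitochondrial NAD-dependent malic enzyme, which makes pyruvate from malate. It had 31.6, 31.0 and 29.9 TPM in ACLYKO, against 15.7, 13.98 and 15.4 TPM in WT. The ACLYKO libraries were all well above the WT libraries (log2 change 0.99 ± 0.13, limma adjusted p = 1.24e-04). Pdk1 had 13.9, 17.3 and 16.1 TPM in ACLYKO, against 8.94, 7.396 and 8.81 TPM in WT, with no overlap (log2 change 0.84 ± 0.14, limma adjusted p = 7.04e-04). Pdk3 had 83.5, 55.6 and 56.1 TPM in ACLYKO, against 48.8, 38.8 and 44.2 TPM in WT. Its highest library was ACLYKO replicate 1, and without that library the log2 change was 0.34 and the limma adjusted p 0.0530 (log2 change 0.53 ± 0.16, limma adjusted p = 0.0280 with it). Pdk2, the kinase that rose under GLUT3 loss, had 0.665, 0.855 and 0.776 TPM in ACLYKO, against 1.39, 0.872 and 1.75 TPM in WT, and did not pass the threshold (log2 change -0.39 ± 0.17, limma adjusted p = 0.126).

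Mpc1, a subunit of the carrier that brings pyruvate into mitochondria, had 48.5, 46.7 and 52.8 TPM in ACLYKO, against 27.3, 34.9 and 27.4 TPM in WT. The groups did not overlap (log2 change 0.71 ± 0.15, limma adjusted p = 0.00427). The pseudogene Mpc1-ps was higher than Mpc1 in every library and moved with it, at 206, 149 and 168 TPM in ACLYKO, against 88.4, 106 and 81.7 TPM in WT. How reads were split between the near-identical copies is uncertain. Mpc2, the other subunit, had 41.1, 53.0 and 67.8 TPM in ACLYKO, against 15.04, 32.8 and 34.9 TPM in WT, and did not pass the threshold.

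Mdh1, cytosolic malate dehydrogenase, had 85.2, 117 and 139.6 TPM in ACLYKO, against 48.7, 60.8 and 70.1 TPM in WT, with no overlap (log2 change 0.90 ± 0.23, limma adjusted p = 0.0110). Idh1 had 8.01, 6.11 and 5.80 TPM in ACLYKO, against 5.18, 3.20 and 3.35 TPM in WT (log2 change 0.65 ± 0.17, limma adjusted p = 0.0129). All ACLYKO libraries lay above all WT libraries. Pcx had 3.99, 11.6 and 10.4 TPM in ACLYKO, against 4.61, 2.85 and 3.33 TPM in WT. Replicate 1 of ACLYKO lay within the WT range, unlike the others (log2 change 0.98 ± 0.28, limma adjusted p = 0.0242), and without the 4 libraries that stood apart the log2 change was 1.55 ± 0.14. Idh1 and Pcx were the 2 members that passed under both losses, which share the WT libraries. A fit of only the ACLYKO and WT libraries left 0 members (6 at an unadjusted p under 0.05; 2.4% of all genes passed). Leaving out WT replicate 2 or WT replicate 3 left 4 members each (12.6% and 12.5% of all genes passed), and voom called 4 (19.1%). The split was 6 higher and 2 lower with median-ratio scaling, 6 and 1 with quantile normalization and 7 and 2 with the GC and length correction. Of all genes 21.8%, 20.9% and 25.5% passed in these fits. Without the 4 libraries that stood apart 14 members were higher and 2 lower, and 39.3% of all genes passed.

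**Figure D3:**
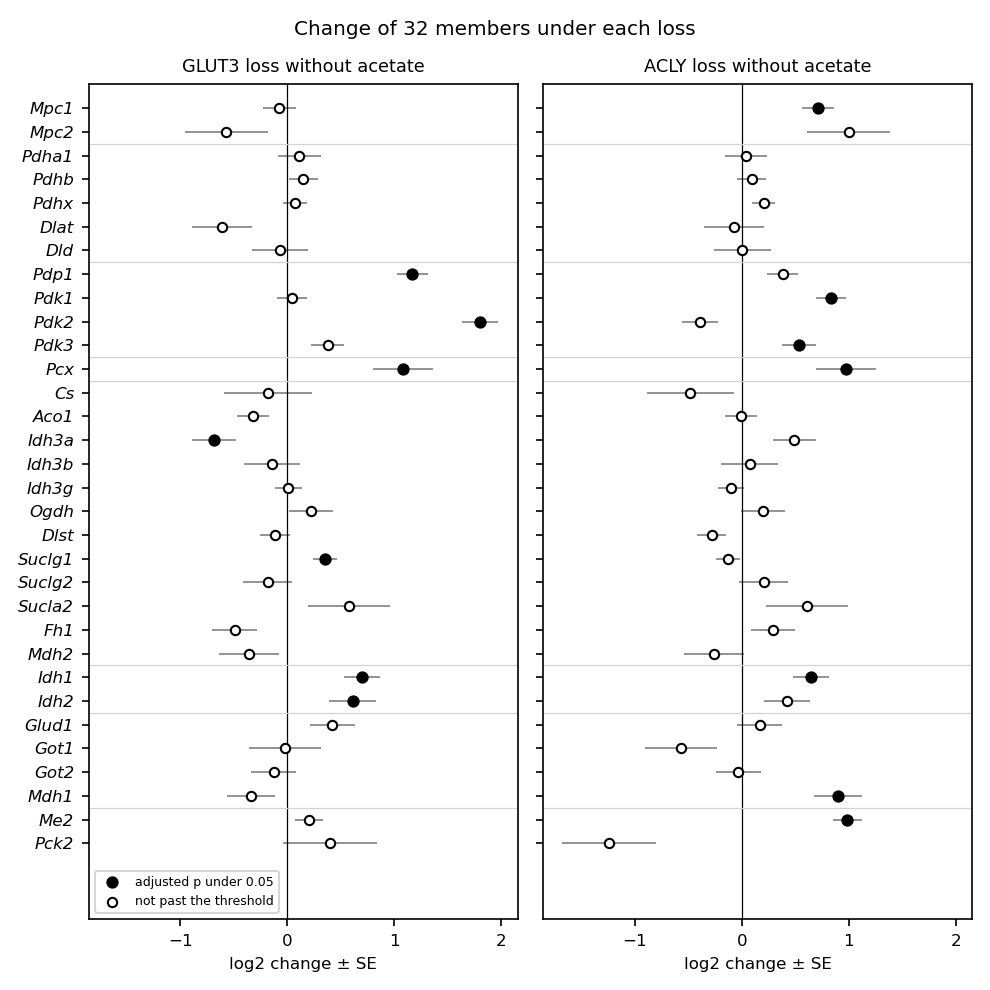
Log2 change on the log2(TPM + 1) scale (x axis, with bars of 1 SE) of the 32 members (rows, by role) under GLUT3 loss and under ACLY loss without acetate; filled points passed an adjusted p under 0.05. GLUT3 loss has 7 filled points and ACLY loss 7, and Pdk2 reaches 1.80 under GLUT3 loss and -0.39 under ACLY loss.

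Set directly against ACLYKO without acetate, GLUT3KO differed in 11 of 32 members (34.4%), 4 higher and 7 lower, against 40.4% of all tested genes (25.2% higher and 15.2% lower). T cell markers summed to 3524 to 4103 TPM in GLUT3KO, against 1842 to 2144 TPM in ACLYKO, and NK cell markers to 10.55 to 34.3 TPM in GLUT3KO, against 4.22 to 7.65 TPM in ACLYKO. Their part in the result was not tested. Pdk2 had 5.93 to 8.34 TPM in GLUT3KO, against 0.665 to 0.855 TPM in ACLYKO (log2 change 2.19 ± 0.17, limma adjusted p = 1.31e-07). Pdp1, Suclg1 and Pck2 were higher in GLUT3KO too (log2 changes of 0.79, 0.48 and 1.64), Pck2 by 0.87 without ACLYKO replicate 1. Idh3a had 55.8 to 66.0 TPM in GLUT3KO, against 111 to 212 TPM in ACLYKO (log2 change -1.18 ± 0.20, limma adjusted p = 2.80e-04). Mpc1, Mpc2, Pdk1, Fh1 (fumarase), Mdh1 and Me2 were also lower in GLUT3KO than in ACLYKO, with log2 changes of -0.79, -1.57, -0.79, -0.79, -1.24 and -0.78. Both subunits of the pyruvate carrier were thus lower in GLUT3KO than in ACLYKO. Fitting only these 6 libraries called 1 member as higher and 5 as lower, with 17.1% of all genes past the threshold. The split was 4 higher and 13 lower with the GC and length correction, 3 and 10 with voom, and 5 and 12 without the 4 libraries that stood apart. Of all genes 46%, 39% and 58.2% were past the threshold in these fits.

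Acetate in GLUT3KO cells went with lower transcripts of the regulators that stood high there. Of the 32 members 0 rose and 5 fell (15.6%), against 12.7% of all tested genes (4.86% higher and 7.89% lower). The median log2 change was -0.02, against -0.07 over all tested genes. The summed TPM of the Th17 markers was 2262 to 2626 in GLUT3KO with acetate, against 336 to 411 without it, and its part in the result was not tested. Of the fallen members 4, Idh1, Pcx, Pdk2 and Pdp1, had risen under GLUT3 loss. Both comparisons use the GLUT3KO libraries without acetate, so their values are set side by side here and their opposite directions carry no test. Pdk2 had 2.13, 2.6996 and 2.85 TPM in GLUT3KO with acetate, against 8.34, 5.93 and 7.07 TPM in GLUT3KO without it. The groups were far apart (log2 change -1.18 ± 0.17, limma adjusted p = 4.04e-04). Relative to WT with acetate, at 1.30, 2.03 and 2.05 TPM, the GLUT3KO libraries with acetate were all higher, but the difference did not pass the threshold (log2 change 0.36 ± 0.17, limma adjusted p = 0.131).

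Pdk3 had 33.2, 35.6 and 34.5 TPM in GLUT3KO with acetate, against 62.8, 52.0 and 56.9 TPM without it, with no overlap (log2 change -0.71 ± 0.16, limma adjusted p = 0.00876). Pdp1 had 14.9, 13.9 and 12.8 TPM in GLUT3KO with acetate, against 27.9, 18.2 and 19.7 TPM without it (log2 change -0.61 ± 0.15, limma adjusted p = 0.0145). Both lay lower in each library with acetate than in each without it. Transcripts of 2 kinases and of the phosphatase Pdp1 thus all fell. The summed TPM of the kinases was 43.9 ± 1.16 in GLUT3KO with acetate, against 73.0 ± 6.40 without it, and the ratio of Pdp1 to that sum was 0.316 ± 0.0320 with acetate, against 0.298 ± 0.0465 without it. Idh1 had 3.26, 4.30 and 3.81 TPM with acetate, against 7.68, 6.22 and 6.72 TPM without it (log2 change -0.72 ± 0.17, limma adjusted p = 0.0111). Pcx had 3.36, 4.04 and 4.14 TPM with acetate, against 7.79, 9.45 and 8.71 TPM without it (log2 change -0.99 ± 0.28, limma adjusted p = 0.0322). Neither gene's groups overlapped. With a replicate block Pcx did not pass the threshold (limma adjusted p = 0.0737), and 4 members did, as did 14.4% of all genes. Pcx lost its call in 8 of 16 alternatives and Pdp1 in 7, and Pdk2 in 0. Lrfn4 on the opposite strand of Pcx had 3.12, 3.92 and 3.45 TPM with acetate, against 3.02, 2.10 and 2.86 TPM without it. Without GLUT3KO replicate 1 the count was 2, with 7.11% of all genes past the threshold. Without any 1 of the GLUT3KO libraries with acetate it was 3, with 6.75% to 7.94%. Without the 4 libraries that stood apart it was 3 higher and 9 lower, and 36.2% of all genes passed. Median-ratio scaling gave 2 higher and 3 lower, quantile normalization 1 and 3, voom 1 and 4 and the GC and length correction 2 and 4. These fits called 12.7%, 13.4%, 11.5% and 16.3% of all genes.

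Pdk2 was the only member whose change with acetate differed between a knockout and WT past the threshold. In WT it had 1.30, 2.03 and 2.05 TPM with acetate, against 1.39, 0.872 and 1.75 TPM without it (log2 change 0.26 ± 0.17, limma adjusted p = 0.451). The difference between the acetate change in GLUT3KO and that in WT was -1.45 ± 0.24 on the log2 scale (limma adjusted p = 0.0107), against 0.773% of all tested genes called (0.225% higher and 0.548% lower). The value kept its sign in all 22 alternatives and lost its call in 4. These were a pseudocount of 0.1 (limma adjusted p = 0.0616), a replicate block (0.0809), the GC and length correction (0.0772) and voom (0.0533). Without the 4 libraries that stood apart 4 members passed for GLUT3KO and 2 for ACLYKO, against 5.5% and 4.15% of all genes. With all libraries, for ACLYKO against WT limma called 0 members (2 at an unadjusted p under 0.05, 0 with voom), against 1.34% of all tested genes (0.78% higher and 0.562% lower).

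The sequences upstream of Pdk2, Pcx and Idh1 are shown because these 3 genes rose under GLUT3 loss and fell with acetate in GLUT3KO. The fourth gene of that kind, Pdp1, had no window in the table used. Each is the 250 bases before the most upstream annotated start of the gene in RefSeq, build GRCm38.p6, 5′ to 3′ on the gene's strand, and capitals mark matches to CACGTG or ACGTG. The window of Pdk2 is chr11:95041372-95041621 (minus strand), that of Pcx chr19:4510222-4510471 (plus strand) and that of Idh1 chr1:65186480-65186729 (minus strand).
Pdk2: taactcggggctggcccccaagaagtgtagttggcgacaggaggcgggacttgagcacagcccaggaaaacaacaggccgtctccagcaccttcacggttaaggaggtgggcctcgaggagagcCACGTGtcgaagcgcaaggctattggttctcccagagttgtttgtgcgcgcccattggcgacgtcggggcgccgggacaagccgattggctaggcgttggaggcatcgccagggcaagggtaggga
Pcx: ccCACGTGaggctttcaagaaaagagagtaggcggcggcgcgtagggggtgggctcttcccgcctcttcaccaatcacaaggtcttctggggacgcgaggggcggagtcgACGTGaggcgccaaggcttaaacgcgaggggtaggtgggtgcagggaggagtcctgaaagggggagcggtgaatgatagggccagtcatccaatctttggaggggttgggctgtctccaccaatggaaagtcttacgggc
Idh1: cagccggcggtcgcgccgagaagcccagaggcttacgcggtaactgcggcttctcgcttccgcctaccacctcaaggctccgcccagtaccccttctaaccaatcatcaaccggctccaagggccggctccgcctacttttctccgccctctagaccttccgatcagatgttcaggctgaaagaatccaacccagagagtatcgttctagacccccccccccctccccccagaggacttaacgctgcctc
CACGTG, the E-box bound by MYC and its partners, begins at position -126 relative to the Pdk2 start and at -248 relative to the Pcx start. ACGTG, the core of the hypoxia response element, lies inside each CACGTG and occurs once more in Pcx, at -140. The Idh1 window holds neither. Windows were found for 29 of the 32 members, 39 in all since some genes have several starts, and both strands were searched. CACGTG was in 5 of the 39 member windows, which belong to 3 genes (Pdk2, Pcx and Ogdh), or 12.8%, against 6.02% of the 32851 windows of all genes. ACGTG was in 12 of 39 (7 genes), or 30.8%, against 16.6% of all windows. For both motifs several of the member windows belong to Ogdh, and some of these overlap and hold the same match. The Ogdh windows that start at 6291347, 6291356 and 6291409 share an ACGTG, and those that start at 6292308 and 6292329 a CACGTG. The shares of windows therefore do not count separate sites. TGATGNAA, the composite element bound by ATF4 with its partners, was in the windows of Pck2 and Got1, 5.13% of the member windows against 3.45% of all. The other motifs searched were rarer in member windows, with 2.56% against 3.74% for the NRF1 motif, 0% against 3.17% for the forkhead motif GTAAACA and 2.56% against 4.08% for AAGGTCA, bound by nuclear receptors. A match shows the letters and not a bound site.

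In ACLYKO cells acetate went with higher transcripts of Suclg1, Idh2, Got2 and Pck2 and with a lower transcript of Idh1. Of the 32 members 4 rose and 1 fell (15.6%), against 17.3% of all tested genes (11.7% higher and 5.6% lower). The median log2 change was 0.04, against 0.10 over all tested genes. The summed TPM of the Th17 markers was 1090 to 1313 in ACLYKO with acetate, against 396 to 520.4 without it, and its part was not tested. Suclg1 had 155, 145 and 144 TPM in ACLYKO with acetate, against 96.6, 97.8 and 100.4 TPM without it. The groups were well apart and tight (log2 change 0.59 ± 0.11, limma adjusted p = 0.00185). Idh2 had 20.7, 18.7 and 16.6 TPM with acetate, against 5.31, 11.5 and 10.6 TPM without it, with ACLYKO replicate 1 the lowest (log2 change 1.01 ± 0.22, limma adjusted p = 0.00482). Idh1 had 4.44, 3.64 and 3.61 TPM with acetate, against 8.01, 6.11 and 5.80 TPM without it (log2 change -0.63 ± 0.17, limma adjusted p = 0.0156). The groups of Idh1 and of Idh2 did not overlap, and the cytosolic and the mitochondrial enzyme moved in opposite directions.

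Got2, the mitochondrial aspartate transaminase, had 283, 223 and 249 TPM in ACLYKO with acetate, against 85.6, 170.2 and 154 TPM without it (log2 change 0.93 ± 0.21, limma adjusted p = 0.00659). All libraries with acetate lay above all those without it. Its pseudogene Got2-ps1 had 67.7, 71.5 and 74.8 TPM with acetate, against 15.4, 50.7 and 47.4 TPM without it, and the split of reads between both is uncertain. Pck2, the mitochondrial phosphoenolpyruvate carboxykinase that takes oxaloacetate out of the cycle, had 132, 142 and 139 TPM with acetate, against 15.9, 78.7 and 84.5 TPM without it. ACLYKO replicate 1 was far below its group, but the groups did not overlap (log2 change 1.51 ± 0.44, limma adjusted p = 0.0273). Without that library the log2 change of Pck2 was 0.75 (limma adjusted p = 0.0138). Leaving out the 4 libraries that stood apart gave log2 changes of 0.78 ± 0.12 for Pck2, 0.63 ± 0.17 for Idh2 and 0.54 ± 0.11 for Got2, all past the threshold. Pck2 lost its call when any 1 of the ACLYKO libraries with acetate was left out, with adjusted p from 0.0582 to 0.0768. A fit of only the ACLYKO libraries left 0 members (4 at an unadjusted p under 0.05; 2.98% of all genes passed). Without ACLYKO replicate 1 the count was 8, with 20.6% of all genes past the threshold. It was 3 without ACLYKO with acetate replicate 2 or 3, with 12.6% and 11.8% of all genes. Without the 4 libraries that stood apart 8 members were higher and 5 lower, with 31.6% of all genes past the threshold. The split was 4 higher and 3 lower with median-ratio scaling, 4 and 2 with quantile normalization and 4 and 4 with the GC and length correction. Of all genes 19.8%, 19.7% and 21.9% passed in these fits.

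In WT cells acetate went with a change past the threshold in 1 member, Suclg1 (3.12%), against 6.5% of all tested genes (4.22% higher and 2.28% lower). The WT groups with and without acetate did not overlap for 62.5% of the members, against 41.2% of all tested genes. Suclg1 had 165, 154 and 174 TPM in WT with acetate, against 111, 97.7 and 114 TPM in WT without it. The summed TPM of the Th17 markers was 3134 to 4144 in WT with acetate, against 1381 to 1587 without it, and its part was not tested. The groups of Suclg1 were well apart (log2 change 0.61 ± 0.11, limma adjusted p = 0.00440), and the call held in all 16 alternatives. In GLUT3KO Suclg1 had 159, 178 and 169 TPM with acetate, against 126, 138 and 149 TPM without it, and did not pass the threshold (log2 change 0.29 ± 0.11, limma adjusted p = 0.0993). The difference between the acetate changes in GLUT3KO and WT did not pass either (-0.31 ± 0.16, limma adjusted p = 0.807). Acetate in WT, with the 4 libraries named above removed, gave 4 higher and 2 lower members, with 19.8% of all genes past the threshold. The split was 1 higher and 1 lower with median-ratio scaling (8.58% of all genes passed) and 2 and 3 with the GC and length correction (10.9%).

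The balance of the NADP-dependent isocitrate dehydrogenases differed with acetate in each genotype. The ratio of Idh2 to Idh1 TPM was 3.06, 3.47 and 3.81 in GLUT3KO with acetate, against 1.30, 1.64 and 1.48 without it. In ACLYKO it was 4.67, 5.14 and 4.60 with acetate, against 0.664, 1.88 and 1.83 without it. In WT it was 3.81, 3.77 and 3.52 with acetate, against 1.26, 1.68 and 2.06 without it. All 9 libraries with acetate thus lay above all 9 without it. This ratio was chosen after the values were seen and carries no test. In WT neither gene passed by itself, with log2 changes of -0.45 ± 0.17 for Idh1 (limma adjusted p = 0.134) and 0.52 ± 0.22 for Idh2 (limma adjusted p = 0.203).

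**Figure D4:**
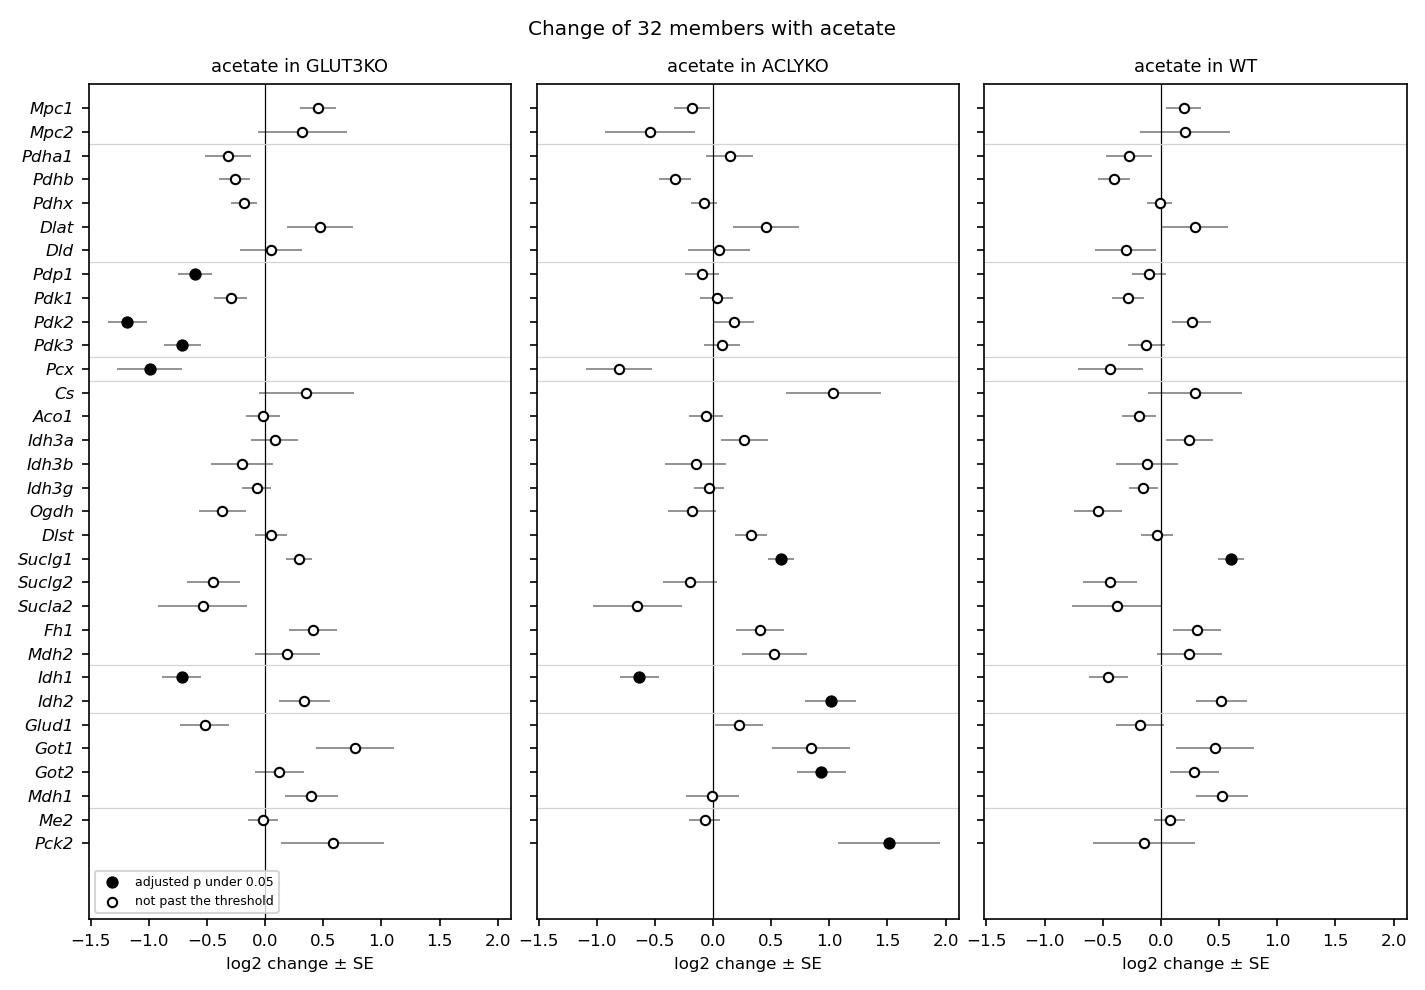
Log2 change with acetate on the log2(TPM + 1) scale (x axis, with bars of 1 SE) of the 32 members (rows, by role) in GLUT3KO, ACLYKO and WT; filled points passed an adjusted p under 0.05. GLUT3KO has 5 filled points, all negative, ACLYKO 5, of which 4 are positive, and WT 1.

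With acetate present, 2 of 32 members passed the threshold under GLUT3 loss (6.25%), against 30.4% of all tested genes (20.9% higher and 9.5% lower). The groups did not overlap for 71.9% of the members, against 71.2% of all tested genes. In these libraries the summed marker TPM was 19.2 to 29.8 for NK cells, 3376 to 3485 for T cells and 2262 to 2626 for Th17 cells in GLUT3KO with acetate. In WT with acetate it was 4.70 to 4.89, 2780 to 3005 and 3134 to 4144 for the same lists. Their part in the result was not tested. Pdp1 had 14.9, 13.9 and 12.8 TPM in GLUT3KO with acetate, against 8.83, 7.96 and 8.26 TPM in WT with acetate, with no overlap (log2 change 0.67 ± 0.15, limma adjusted p = 0.00291). Idh3a had 58.2, 68.6 and 68.7 TPM in GLUT3KO with acetate, against 113, 115 and 125 TPM in WT with acetate. Each GLUT3KO library was below each WT library (log2 change -0.85 ± 0.20, limma adjusted p = 0.00491). Idh3a and Pdp1 were thus the members that passed under GLUT3 loss both without and with acetate. Pck2 had the largest change of the members but did not pass (log2 change 1.12). It had 214, 232 and 229 TPM in GLUT3KO with acetate, against 114, 94.9 and 100.4 TPM in WT with acetate. It passed without the 4 libraries that stood apart, none of which is in these groups (log2 change 1.12 ± 0.10, limma adjusted p = 3.32e-06). The split moved with the setting. It was 1 higher and 4 lower with median-ratio scaling, 1 and 6 with quantile normalization, 1 and 2 with voom and 0 and 7 with the GC and length correction. These fits called 32.5%, 33.7%, 29.8% and 38% of all genes. A fit of only these 6 libraries called 10 higher and 12 lower, with 66% of all genes past the threshold, and without the 4 libraries named above 9 higher and 8 lower, with 59.2%.

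With acetate present, 4 of 32 members rose and 0 fell under ACLY loss (12.5%), against 13.5% of all tested genes (11.5% higher and 1.98% lower). Th17 markers summed to 1090 to 1313 TPM in ACLYKO with acetate, against 3134 to 4144 TPM in WT with acetate, and their part was not tested. The median log2 change was 0.37, against 0.16 over all tested genes. Pdk1 had 16.9, 16.5 and 14.9 TPM in ACLYKO with acetate, against 5.73, 6.33 and 8.18 TPM in WT with acetate, with no overlap (log2 change 1.15 ± 0.14, limma adjusted p = 1.34e-04). Me2 had 35.0, 26.3 and 27.1 TPM in ACLYKO with acetate, against 15.4, 15.6 and 16.6 TPM in WT with acetate (log2 change 0.84 ± 0.13, limma adjusted p = 7.81e-04). Pdk3 had 76.9, 61.7 and 64.5 TPM in ACLYKO with acetate, against 37.9, 39.2 and 43.3 TPM in WT with acetate (log2 change 0.74 ± 0.16, limma adjusted p = 0.00587). Neither Me2 nor Pdk3 had overlapping groups. Idh2 had 20.7, 18.7 and 16.6 TPM in ACLYKO with acetate, against 8.70, 9.98 and 9.48 TPM in WT with acetate (log2 change 0.92 ± 0.22, limma adjusted p = 0.0113), and lost its call without replicate 1 of ACLYKO with acetate. Me2, Pdk1 and Pdk3 passed under ACLY loss both without and with acetate. They did not pass the threshold with acetate in ACLYKO, with log2 changes of -0.07 ± 0.13 for Me2, 0.03 ± 0.14 for Pdk1 and 0.08 ± 0.16 for Pdk3. A fit of only these 6 libraries called 13 members as higher and 0 as lower, with 24.3% of all genes past the threshold, and without the 4 libraries named above 16 higher and 1 lower, with 28.7%. The split was 3 higher and 1 lower with median-ratio scaling and 4 and 1 both with quantile normalization and with voom. Of all genes 11.7%, 12.6% and 11.1% passed in these fits.

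**Figure D5:**
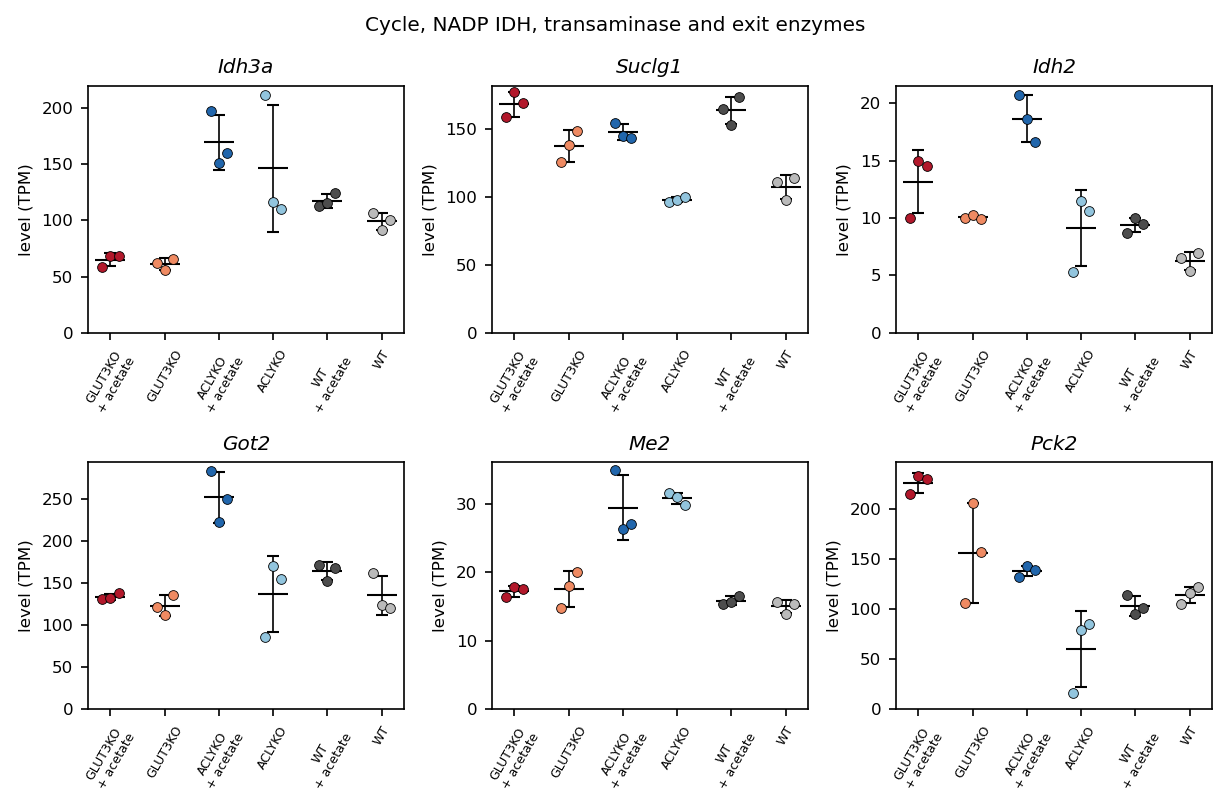
Levels in TPM (y axis, starting at 0) of Idh3a, Suclg1, Idh2, Got2, Me2 and Pck2 in the 6 groups (x axis); points are libraries, horizontal marks the mean and bars the SD of 3. Me2 lies between 26.3 and 35.0 TPM in the 6 ACLYKO libraries and between 13.98 and 19.99 TPM in the other 12.

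In all, 14 members passed the threshold in at least 1 of the 7 comparisons (4 of a loss, 3 of acetate), and 18 in none. That is 43.8% of the members, against 55.7% of all tested genes. Those 18 were Mpc2, the pyruvate dehydrogenase core subunits Pdha1, Pdhb, Pdhx, Dlat and Dld, the cycle enzymes Cs, Aco1, Idh3b, Idh3g, Ogdh, Dlst, Suclg2, Sucla2, Fh1 and Mdh2, and Glud1 and Got1. For the core subunits limma called 0 of 35 values, 5 had an unadjusted p under 0.05, and voom called 0. The fit without the 4 libraries that stood apart did call some of them. There Pdhb was lower with acetate in WT, GLUT3KO and ACLYKO (log2 changes of -0.39, -0.36 and -0.39). Under GLUT3 loss without and with acetate Pdhb was higher and Dlat lower. Dld was higher with acetate in ACLYKO and under both losses with acetate present. Idh1 passed in 4 of the 7 comparisons, and Pdp1, Pdk3, Pcx, Suclg1 and Idh2 in 3 each. Under GLUT3 loss without acetate the groups did not overlap for 31.2% of the members, against 45.5% of all tested genes. Under ACLY loss this was 37.5% against 26.8% without acetate and 68.8% against 54.1% with it. For acetate it was 62.5% against 41.2% in WT, 59.4% against 44.6% in GLUT3KO and 21.9% against 27.7% in ACLYKO. A p that misses the threshold does not show that a member did not differ. The 95% interval of the GLUT3 loss change for Cs, for example, ran from -1.05 to 0.69 on the log2 scale.

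A further 34 genes of the pathway that are no members (other subunits, lipoylation enzymes, glutamine enzymes and carriers) were looked at in the same fit, and 28 of them passed the filter. Pdk4, another pyruvate dehydrogenase kinase, did so through GLUT3KO libraries alone, so it is described without a test and left out of the counts. It averaged 0.994 ± 0.150 TPM in GLUT3KO with acetate and 1.01 ± 0.140 TPM in GLUT3KO without it, and was listed at 0 in all 6 WT libraries. Of the other 27 genes 6 rose and 3 fell under GLUT3 loss (33.3%), against 33.4% of all tested genes. Acod1, which makes itaconate from cis-aconitate, averaged 6.61 ± 0.111 TPM in GLUT3KO and 0.830 ± 0.303 TPM in WT (log2 change 2.07 ± 0.21, limma adjusted p = 2.72e-06). Slc38a1, a glutamine transporter, had a log2 change of 0.73 ± 0.14 and Slc25a13, a mitochondrial aspartate-glutamate carrier, one of -0.87 ± 0.18 (limma adjusted p = 8.57e-04 and 0.00194). Under ACLY loss 5 rose and 4 fell (33.3%, against 19.1% of all tested genes), with log2 changes of 2.17 ± 0.21 for Acod1, 0.97 ± 0.13 for the glutamine synthetase Glul, -0.96 ± 0.22 for the aspartate-glutamate carrier Slc25a12 and -0.69 ± 0.16 for the alanine transaminase Gpt2. ACLYKO replicate 1 was the lowest of its group for Slc25a12, at 4.13 TPM against 10.1 and 8.15 TPM in replicates 2 and 3. It was also the lowest for Gpt2, at 5.61 TPM against 9.08 and 8.66 TPM. Acod1 was thus higher under both losses, which share the WT libraries.

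With acetate, 3 of these 27 genes rose and 3 fell in GLUT3KO (22.2%, against 12.7% of all tested genes). In ACLYKO 7 rose and 1 fell (29.6%, against 17.3%), and in WT 2 rose and 1 fell (11.1%, against 6.5%). Acod1 fell in both knockouts, with a log2 change of -0.94 ± 0.21 in GLUT3KO (limma adjusted p = 0.00845) and of -1.77 ± 0.21 in ACLYKO (limma adjusted p = 3.50e-05). The difference between its acetate changes in ACLYKO and WT passed the threshold as well (-1.67 ± 0.29, limma adjusted p = 0.0109), and was lost in 3 of 22 alternatives. Gpt2 rose in both, with log2 changes of 0.66 ± 0.16 in GLUT3KO and 1.36 ± 0.16 in ACLYKO. Slc25a12 and the glutaminase Gls2 rose in ACLYKO (log2 changes of 1.32 ± 0.22 and 1.46 ± 0.28). Pdpr, the regulatory subunit of the pyruvate dehydrogenase phosphatase, fell in GLUT3KO (-0.80 ± 0.17) and in WT (-0.66 ± 0.17). In WT Lipt1, a lipoyltransferase, and Gpt, an alanine transaminase, rose (0.69 ± 0.14 and 0.84 ± 0.22). With acetate present, 5 of the 27 genes rose and 3 fell under GLUT3 loss (29.6%, against 30.4% of all tested genes), and 5 rose and 0 fell under ACLY loss (18.5%, against 13.5%). Under ACLY loss Slc25a10, a dicarboxylate carrier, Pdpr and Slc25a13 had log2 changes of 1.52 ± 0.32, 0.71 ± 0.17 and 0.74 ± 0.18. Acod1 was among those that rose under GLUT3 loss (log2 change 1.24 ± 0.21, limma adjusted p = 3.25e-04).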

How the data were processed

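Poly(A) RNA was sequenced from Th17 cultures of 3 genotypes with and without acetate, 18 libraries in 6 groups of 3, as stranded libraries per the labels' protocols. The deposited table holds TPM, made by the authors, with the combined exon length in bases of each gene. The submitters' processing notes name the build GRCm38.p6 and the tools featureCounts 1.6.4, STAR 2.7.2b, cutadapt, DESeq2 and bcl2fastq 2.20.0.422, with no role or order. The strand setting of the counting and any handling of reads with several positions are not given in the sources used here.

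The deposited TPM have decimal commas, which were read as decimal points. TPM times exon length gave whole multiples of 1 step per library for 100% of values under 500 reads (within 0.01), and the depth was taken from that step. Genes that reached a TPM of 1 in 3 or more of the 18 libraries were tested with limma 3.58.1 in R 4.3.3 on log2(TPM + 1), with 1 mean per group over all 18 libraries, trended and robust moderation, and Benjamini-Hochberg adjustment over 14229 genes (two-sided, adjusted p under 0.05). A log2 change on this scale understates the change of low genes. There were 10 comparisons, 2 of them differences between acetate changes. The code was tested on simulated data.

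The members, the 34 further pathway genes and the marker lists were chosen with earlier results of these data known. All members past the threshold are named, with values in every library for at most 6 per direction by adjusted p, and of the further genes at most 4 per comparison. Pdk4, which passed the filter through GLUT3KO libraries alone, was left out of their counts. A result for 1 of the further genes is not reported here. Pdk3 under ACLY loss, Pdp2, sums, ratios and members named although they missed the threshold were chosen after their values were seen.

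Replicate numbers were checked for pairing by correlating deviations from group means across genes. Every correlation was over 0.1 for ACLY loss without acetate and for acetate in WT, GLUT3KO and ACLYKO, and not for the other pairs of groups. They ran from 0.285 to 0.577, 0.12 to 0.13, 0.147 to 0.194 and 0.265 to 0.548 in these 4 comparisons. Such correlations do not show that libraries of the same number were paired. Alternatives were a pseudocount of 0.1, no filter and a filter at a TPM of 5, quantile normalization, median-ratio scaling, a replicate block, leaving out each library and a model restricted to the groups compared. For acetate in a genotype the replicate block was a term per replicate number within each genotype. For the other comparisons, the differences between acetate changes included, it was a term per replicate number shared by all libraries. Added after the data were seen were a fit without the 4 libraries that stood apart, a correction for GC content and exon length, and voom on the recovered reads. Promoter windows are from RefSeq.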

Additional observations from a re-analysis of the deposited data

Results flagged for a closer look

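The change of Pdk2 with acetate differed between GLUT3KO and WT in a direct test of that difference. It was -1.45 ± 0.24 on the log2 scale (limma adjusted p = 0.0107), and the adjusted p ranged from 0.0106 to 0.0809 over 22 alternatives. All 3 GLUT3KO libraries with acetate lay below all 3 without it, and the WT groups overlapped. Pdk2 had few reads, between 14 and 218 per library.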

How the results depend on the processing

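Of 694 values of the 43 calls of members under the alternatives, 609 stayed past the threshold, 85 did not and 0 changed sign. Of 172 alternative counts of members, 132 were within 1.5 times the main count. Where a fit of only the groups compared moved the count, it called 0 for ACLY loss without acetate and for acetate in ACLYKO, 3 for acetate in WT, 22 and 13 for GLUT3 and ACLY loss with acetate, and 6 for GLUT3KO against ACLYKO. In the same order, 2.4%, 2.98%, 10.3%, 66%, 24.3% and 17.1% of all genes passed. Without the 4 libraries that stood apart the counts were 16 and 16 for GLUT3 and ACLY loss without acetate, 12, 13 and 6 for acetate in GLUT3KO, ACLYKO and WT, 17 and 17 for GLUT3 and ACLY loss with acetate, 17 for GLUT3KO against ACLYKO, and 4 and 2 for the differences between acetate changes in GLUT3KO and in ACLYKO and that in WT. Of all genes 60.1%, 39.3%, 36.2%, 31.6%, 19.8%, 59.2%, 28.7%, 58.2%, 5.5% and 4.15% passed, in the same order. The GC and length correction called 14 for GLUT3 loss without acetate, 8 and 5 for acetate in ACLYKO and WT, 7 for GLUT3 loss with acetate, 17 for GLUT3KO against ACLYKO and 0 for the acetate difference of GLUT3KO (6 at an unadjusted p under 0.05). It called 38.4%, 21.9%, 10.9%, 38%, 46% and 0.654% of all genes in these comparisons. For GLUT3 loss with acetate median-ratio scaling called 5 and quantile normalization 7 (32.5% and 33.7% of all genes). For acetate in WT they called 2 and 2 (8.58% and 8.5%). Voom called 4 for ACLY loss without acetate (19.1% of all genes). For the acetate difference of GLUT3KO voom, a pseudocount of 0.1 and the replicate block called 0 each (3 at an unadjusted p under 0.05 in each). They called 0.232%, 0.148% and 0.225% of all genes. The replicate block called 4 for GLUT3 loss with acetate (34.7% of all genes), where the correlations by replicate number were not over 0.1, against 2 without it. Where every such correlation was over 0.1, the block ended the call of Pcx with acetate in GLUT3KO and no other call of a member. There it raised the count to 10 for ACLY loss without acetate and to 6 for acetate in ACLYKO (23.1% and 17.7% of all genes). The block also ended the call of Pdk2 in the acetate difference of GLUT3KO. That block was shared by all libraries, although the correlations between GLUT3KO and WT were not all over 0.1. Leaving out 1 library gave 4 to 9 members for ACLY loss without acetate, 2 to 5 for acetate in GLUT3KO and 3 to 8 for acetate in ACLYKO. All genes passed at 12.5% to 25.3%, 6.75% to 16.5% and 11.8% to 20.7% in these fits. The cause of these shifts was not tested. Mpc1 and Got2 share sequence with pseudogenes, and 10 members overlap another annotated gene. Depth limits Pdk2, Idh1, Mpc2 and Pcx most among the members, with as few as 14, 59, 76 and 89 reads in a library.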

Other observations

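Without the 4 libraries that stood apart, a fit chosen after the data were seen, 2 further patterns passed the threshold. The acetate changes of Pdk3, Pcx and Glud1 then differed between GLUT3KO and WT, by -0.60, -0.78 and -0.51 on the log2 scale. Those of Pcx and Pck2 differed between ACLYKO and WT, by -1.12 and 0.98. In that fit 5.5% and 4.15% of all tested genes passed in these comparisons.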
